A study of Mus musculus with 2 samples.

Results

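The 36 genes described here encode the enzymes and carriers through which glucose carbon runs in the embryonic mouse forebrain: glucose and lactate carriers, the enzymes of glycolysis with lactate dehydrogenase, the fructose-2,6-bisphosphate enzymes, the pentose phosphate pathway, pyruvate dehydrogenase with its kinases, and enzymes of the tricarboxylic acid (TCA) cycle. They were named by gene symbol, with earlier results of these data known. All 36 of 36 had a row in both gene tables, out of 43346 rows with Ensembl gene identifiers. Total RNA was measured by sequencing in forebrain at embryonic day 10.5 (E10.5), in healthy embryos of mouse strain B6NCrl, males and females pooled; the labels give no genetic change and no treatment. The study has a single group of 2 libraries, each made from 10 ng of RNA: replicate 1 pooled the forebrains of 69 embryos and replicate 2 those of 51 others. There was no second condition, so every comparison is between genes within a library or between the pools, and errors are SD over n = 2 throughout.

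Glycolysis splits glucose into pyruvate, with the main control points known to lie at hexokinase, phosphofructokinase and pyruvate kinase. Pyruvate is then reduced to lactate by lactate dehydrogenase and exported, or enters the mitochondrion, where pyruvate dehydrogenase feeds it into the TCA cycle. Many steps have several isoenzymes encoded by separate genes, and dividing embryonic cells, neural progenitors among them, are known for the M2 form of pyruvate kinase and for high glycolytic flux even where oxygen is present.

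The gene tables held 41537304 expected counts in genes for replicate 1 and 38012457 for replicate 2. The 36 genes took 871564 and 826193 of these, or 2.10% and 2.17%. Whole forebrain tissue was used, so other cells were present. Forebrain markers summed to 216 TPM in each library (TPM, a length-adjusted share of the library's transcripts), and neuroepithelial markers to 1371 and 1272 TPM, with no marker of either list at 0. Erythroid markers summed to 20006 TPM in replicate 1 and 14752 in replicate 2, and all 8 were past 1.2-fold higher in replicate 1. The 6 neuronal markers summed to 390 and 301 TPM and were also all past 1.2-fold higher in replicate 1. Endothelial markers (165 and 174 TPM), head mesenchyme markers (483 and 486 TPM) and macrophage markers (41.4 and 40.7 TPM) were detected in both. Muscle markers were near 0, with 1.56 and 1.64 TPM in all and Ckm at 0 counts. In such bulk tissue, fewer cells of a type and less RNA per cell cannot be told apart, and the part of these cell types in the levels below was not tested.

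All 36 genes were detected, here meaning 1 TPM or more in both libraries. Their median level was 181 TPM in replicate 1 and 188 TPM in replicate 2 (184 ± 4.74), against 17.0 and 17.2 TPM over the 14032 genes detected in both. At 100 TPM or more in both libraries were 22 of the 36 genes, while 4.03% of all gene rows and 12.5% of the detected genes reached that level. The distribution within the pathway was uneven. The 4 highest genes, Eno1, Ldha, Gapdh and Pkm, made up 60.7% and 61.1% of the summed TPM of the 36, and the 8 highest 78.0% and 78.4%. With counts over the longest transcript of each gene, an alternative added after the data were seen, Gapdh took place 7 among the 36 genes, and the same 4 genes made up 56.9% and 57.8%. Lower glycolysis and lactate formation had the highest median of the 6 role groups at 977 ± 45.4 TPM over 9 genes, followed by the TCA group at 367 ± 7.76 TPM over 5 genes and the pentose phosphate group at 161 ± 0.375 TPM over 4 genes. Upper glycolysis had the lowest median, 31.3 ± 1.03 TPM over 11 genes, which include several isoenzymes for one step. By summed TPM it was second at 2524 ± 72.8, after lower glycolysis (13494 ± 449) and before the TCA group (1684 ± 13.1). In the order of levels, 24 of the 35 neighbouring pairs had the same order in both libraries, so the other 11 neighbours cannot be ranked from these pools.

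**Figure D1:**
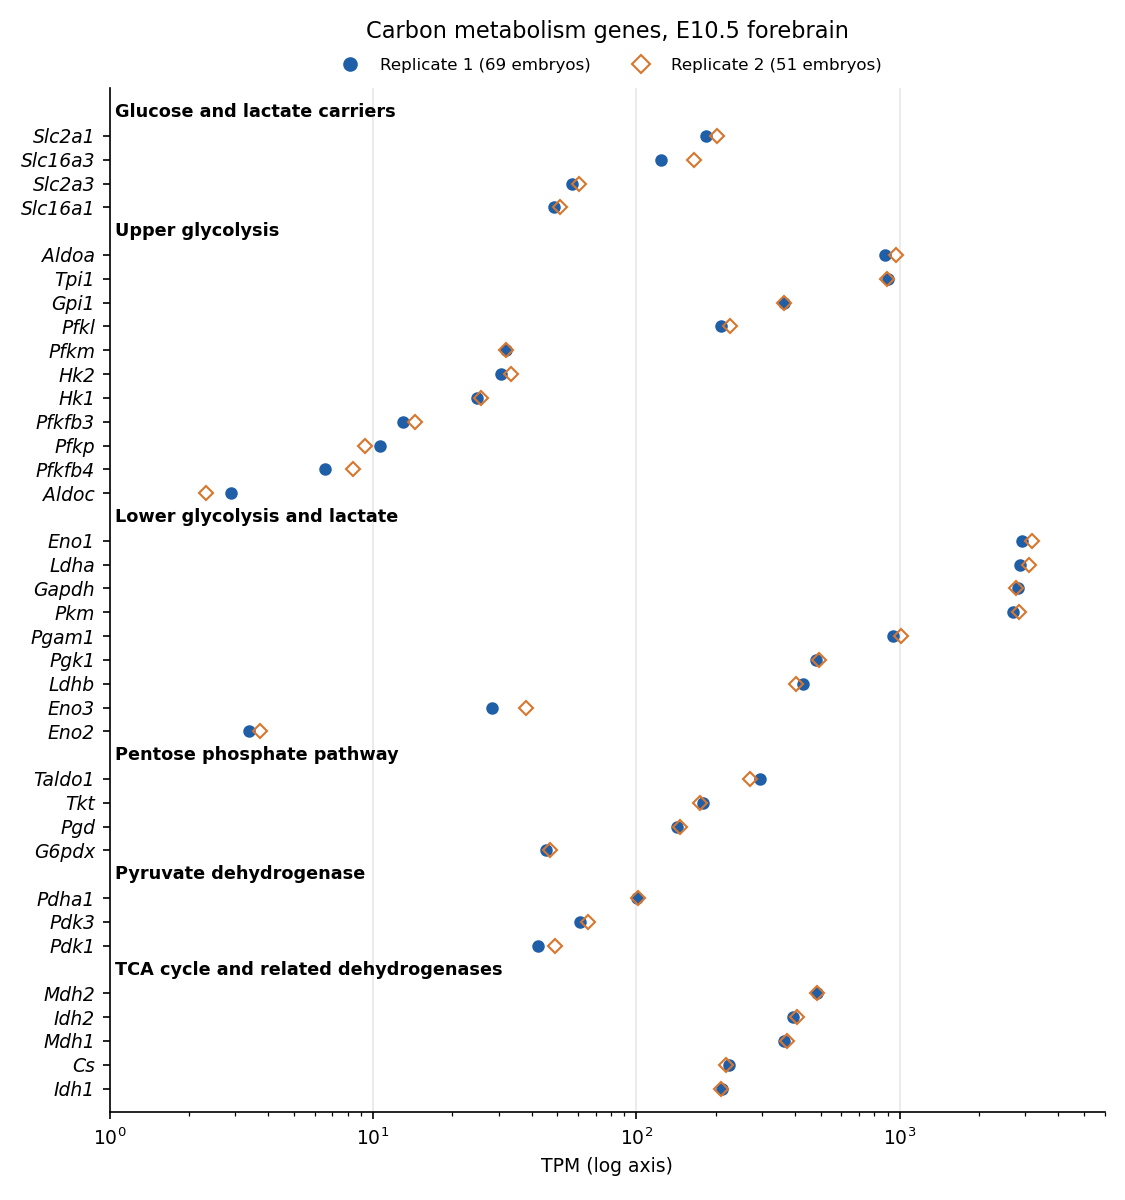
Level of each of the 36 genes in TPM (log axis) in replicate 1 (filled circles) and replicate 2 (open diamonds), grouped by role and ordered by mean within a group. The 2 libraries lie close together for most genes, while levels between genes range from 2.61 TPM (Aldoc) to 3048 TPM (Eno1); Slc16a3, Eno3, Pfkfb4 and Aldoc are the pairs of points that stand farthest apart.

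Glucose enters cells through facilitative carriers of the SLC2A family. Slc2a1 (GLUT1, the carrier of blood vessels, red cells and most embryonic cells) was at 183 TPM in replicate 1 and 202 TPM in replicate 2. Slc2a3 (GLUT3, a high-affinity carrier best known from neurons) was at 56.9 and 60.4 TPM. Slc2a1 was thus the higher in both libraries, by 3.22-fold and 3.34-fold, and it held 68.0% ± 0.865 of the summed TPM of 8 glucose and hexose carriers. The mean ratio was 2.17-fold without division by length and 5.19-fold over the longest transcripts. The latter divides Slc2a3 counts by a model of 6253 bases, while its leading transcript, with 95.8% and 95.5% of its TPM, had 3959 bases. Monocarboxylate carriers pass lactate and pyruvate through the membrane together with a proton. Slc16a3 (MCT4, a low-affinity carrier known for lactate export) was at 124 TPM in replicate 1 and 165 TPM in replicate 2, and Slc16a1 (MCT1, the widespread carrier) at 48.6 and 51.2 TPM. Slc16a3 exceeded Slc16a1 in both libraries, by 2.55-fold and 3.22-fold. The order was the same without division by gene length and over the longest transcripts, but the lead then shrank to 1.35-fold and 1.38-fold. Their chaperone basigin (Bsg), needed to bring both carriers to the surface, was at 519 ± 17.8 TPM, above either carrier.

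Upper glycolysis begins with hexokinase, which traps glucose as its phosphate. Hk2, the inducible form typical of muscle and of dividing cells, was at 30.6 and 33.3 TPM, and Hk1, the form that prevails in adult brain, at 24.9 and 25.7 TPM. The Hk2 row was higher by 1.23-fold and 1.30-fold, but the order depended on how length entered. The Hk2 transcript with the largest share of TPM, 54.7% and 51.4%, was a model of only 594 bases that held 229 and 211 of the 2292 and 2385 counts. With counts divided by the length of the longest transcript, Hk1 (30.4 ± 0.462 TPM) was above Hk2 (22.1 ± 2.24 TPM), and with counts alone the difference was -0.10 on the log2 scale. Hk1 and Hk2 were therefore not ranked. Summed over the listed hexokinase genes, this step had 59.9 ± 2.38 TPM, the lowest total of the steps from hexokinase to lactate dehydrogenase. Glucose phosphate isomerase (Gpi1), which makes fructose 6-phosphate, was at 362 and 365 TPM.

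Phosphofructokinase commits the sugar to glycolysis and has 3 subunits named for liver, muscle and platelet. The liver subunit Pfkl led in both libraries, at 209 TPM in replicate 1 and 227 TPM in replicate 2. The muscle subunit Pfkm was at 32.04 and 32.02 TPM, and the platelet subunit Pfkp at 10.6 and 9.30 TPM. Pfkl made up 83.1% and 84.6% of the step, 6.79-fold above Pfkm and 21.8-fold above Pfkp on average over the libraries. Pfkm was 3.20-fold above Pfkp, and all 3 differences were larger than their spread between libraries. Over the longest transcripts Pfkl was 39.3-fold and Pfkm 5.71-fold above Pfkp. Part of Pfkp's annotated transcript, 748 bases, overlaps the neighbouring gene Pitrm1 on the opposite strand (8627 and 7980 counts against 677 and 620 for Pfkp). The strand setting was not given, so the value of Pfkp is uncertain. The activator of phosphofructokinase, fructose 2,6-bisphosphate, is made and broken down by the bifunctional PFKFB enzymes. Pfkfb3, the form with the highest kinase activity, was at 13.0 and 14.4 TPM, and Pfkfb4 at 6.58 and 8.42 TPM. Pfkfb3 was the higher by 1.96-fold and 1.70-fold, and by 1.23-fold on average over the longest transcripts. Its TPM was higher in replicate 2 while its scaled counts were not (ratio 0.945), as its deposited length went from 3460 to 2997 bases. Of the 3 other genes of this branch all were detected, with Pfkfb1 at 6.43 ± 0.410, Pfkfb2 at 4.30 ± 0.714 and the phosphatase Tigar at 4.10 ± 0.0424 TPM, all below the lowest phosphofructokinase subunit.

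Aldolase splits the 6-carbon sugar, and its level rested on a single gene. Aldoa, the muscle and embryonic form, was at 880 and 965 TPM. Aldoc, the brain form of later astrocytes and Purkinje cells, was at 2.88 TPM in replicate 1 (108 counts) and 2.33 TPM in replicate 2 (79 counts), the lowest of the 36 genes. Aldoa held 99.7% ± 0.0603 of the summed TPM of this step and exceeded Aldoc by 295-fold and 397-fold, and by 621-fold on average over the longest transcripts. Triose phosphate isomerase (Tpi1), which interconverts the 2 triose products, was at 900 and 893 TPM.

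The highest TPM values were among the reactions after the split, but phosphoglycerate kinase (487 ± 8.51 TPM) stayed below aldolase (925 ± 59.7 TPM). Gapdh, which oxidises glyceraldehyde 3-phosphate, was at 2812 TPM in replicate 1 and 2758 TPM in replicate 2. Its leading transcript by TPM share (51.3% and 49.4%) was a model of only 483 bases. Over the longest transcript, a model of 3289 bases, the gene's level would be 968 ± 0.202 TPM. That would move it from place 25 to place 105 among all genes. The gene length deposited with the TPM was 927 and 943 bases, so the 968 TPM rests on a length far above it. A further 235 gene models elsewhere in the genome share sequence with Gapdh and together held counts equal to 10.4% and 9.90% of its own. Phosphoglycerate kinase (Pgk1), the first step to make ATP, was at 481 and 493 TPM. The processed copy Pgk1-rs7, identical to Pgk1 over 1255 bases, took 3635 and 3013 counts against 22955 and 21218 for Pgk1, and how such reads were divided sets both values. Phosphoglycerate mutase (Pgam1) was at 945 and 1009 TPM, where the copy Pgam1-ps2 held 1025 and 833 counts against 45300 and 43615. For 20 of the 36 genes no other gene model matched a transcript at 90% identity over 200 bases.

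Enolase makes phosphoenolpyruvate, and the 3 isoenzymes, named alpha, gamma and beta, mark the switch to neurons and to muscle in later development. The ubiquitous alpha form Eno1 (mm10 chr4:150236721-150248879, plus strand) was the highest of the 36 genes at 2916 TPM in replicate 1 and 3181 TPM in replicate 2. The neuronal gamma form Eno2 was at 3.37 and 3.72 TPM from 157 and 163 counts. The muscle beta form Eno3 was at 28.2 and 38.1 TPM from 1038 and 1299 counts. Eno1 exceeded Eno2 by 840-fold and 833-fold, the largest of the 15 isoenzyme ratios (1260-fold over the longest transcripts), and Eno3 exceeded Eno2 by 8.16-fold and 10.0-fold. Eno1 made up 98.8% ± 0.157 of the summed TPM of the 4 listed enolase genes. Outside this sum, 4 gene models elsewhere share sequence with Eno1 and held counts equal to 2.38% and 2.17% of its own. The highest, Gm4735 (99.6% identical over 1302 bases), was at 89.6 and 89.0 TPM, above Eno3 and Eno2. The low Eno2 stood beside neuronal markers that were present in both libraries, and the higher Eno3 beside muscle markers of which 1 of 4 was detected.

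Pyruvate kinase makes pyruvate and is the last ATP-forming step. Pkm (mm10 chr9:59656368-59679375, plus strand) was at 2688 TPM in replicate 1 and 2832 TPM in replicate 2, from 173531 and 164853 counts, the most counts of the 36 genes. The other pyruvate kinase gene, Pklr, which serves liver and red cells, was at 4.75 and 3.78 TPM, so Pkm held 99.8% of the step. Pklr was 1.28-fold higher in replicate 1, where the erythroid markers summed to 1.36 times their level in replicate 2; their part in the Pklr value was not tested. Pkm makes M1 or M2 by taking in either exon 9 or exon 10, never both in a normal transcript. M1 is always active and marks adult muscle and neurons, while M2 can be switched by metabolites and signals. Both exons have 167 bases and are shown here because they are the only coding stretch in which the isoforms differ. They are given from GENCODE M21 transcripts on GRCm38 (the assembly called mm10), 5′ to 3′ on the plus strand, with capitals at the bases that differ between them:
Exon 9 (M1), chr9:59675029-59675195: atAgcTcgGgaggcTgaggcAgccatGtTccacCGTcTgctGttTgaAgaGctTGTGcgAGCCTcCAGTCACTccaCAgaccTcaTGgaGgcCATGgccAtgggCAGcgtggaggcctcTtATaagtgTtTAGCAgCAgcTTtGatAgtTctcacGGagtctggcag
Exon 10 (M2), chr9:59675568-59675734: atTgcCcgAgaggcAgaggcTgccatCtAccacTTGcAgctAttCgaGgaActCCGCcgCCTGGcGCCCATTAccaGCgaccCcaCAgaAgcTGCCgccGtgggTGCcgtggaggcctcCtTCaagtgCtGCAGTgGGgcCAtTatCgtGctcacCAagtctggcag

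The exons are equal in length, are separated by 372 bases of intron, and match at 103 of 167 positions (61.7%), and differ at the other 64. Their GC contents were 56.3% for exon 9 and 62.9% for exon 10. The deposited transcript tables held 2 Pkm transcripts, both of 2432 bases, so their TPM shares and count shares are on the same footing. In GENCODE M21 the models of these 2 transcripts also differ at their ends, outside the coding part, so the deposited shares may rest on more than the exons shown. The transcript with exon 10 (M2) carried 97.79% of Pkm TPM in replicate 1 and 98.29% in replicate 2, 2629 and 2784 TPM. The transcript with exon 9 (M1) carried 2.21% and 1.71%, 59.3 and 48.5 TPM from 3827 and 2826 estimated counts. The M2 transcript was thus 44.3-fold and 57.3-fold above the M1 transcript. The deposited intervals of the M1 level (confidence level not given in the sources used here) ran from 53.3 to 63.4 TPM in replicate 1 and from 42.7 to 53.1 TPM in replicate 2. These did not overlap, nor did those of M2 (2561 to 2588 and 2706 to 2735 TPM). The M2 TPM of 2629 and 2784 lay above its own interval in each library. For the whole gene the bounds ran from 2620 to 2645 and from 2754 to 2781 TPM. They enclosed its posterior mean TPM (2633 and 2768) and not the TPM compared here (2688 and 2832). The intervals therefore do not bound the stated M2 TPM. Each interval comes from a single library and holds no variation between pools. The share of all transcripts with intervals apart was not counted. The lower M1 share in replicate 2 stood beside the lower neuronal markers there (390 and 301 TPM), whose part in it was not tested. The 6 splicing regulators listed for Pkm were all detected: Hnrnpa1 at 1626 ± 47.9, Hnrnpa2b1 at 1258 ± 61.9 and Srsf3 at 1115 ± 1.63 TPM were highest, and Ptbp1, which represses exon 9, was above its neuronal paralog Ptbp2 at 318 ± 2.31 against 139 ± 4.04 TPM.

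**Figure D2:**
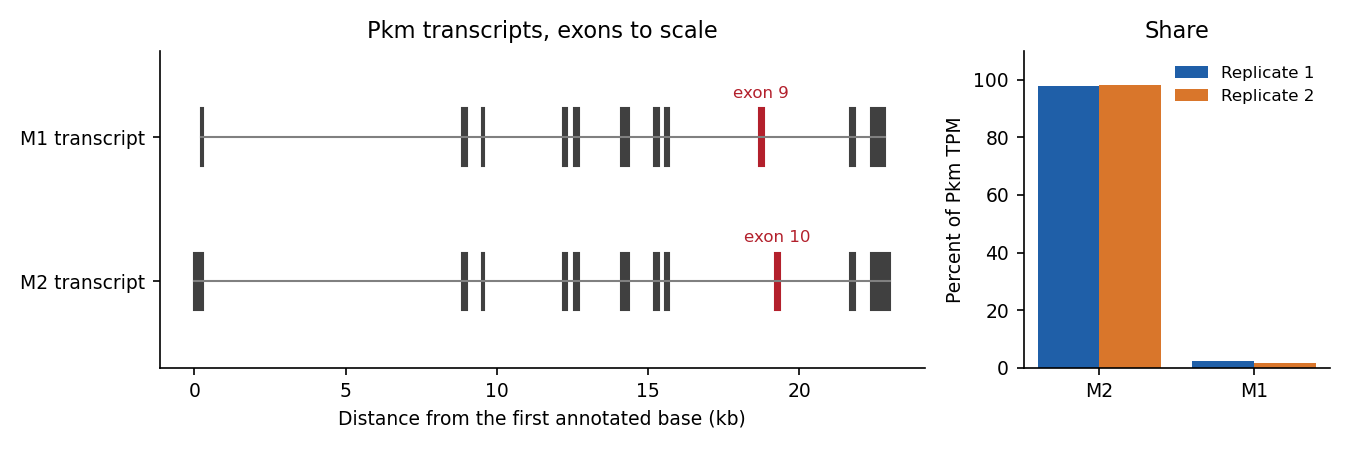
Left, the M1 and M2 transcripts of Pkm with the exons of GENCODE M21 drawn to scale along the gene (kb from the first annotated base; the alternative exon in red); right, percent of Pkm TPM in each transcript for replicate 1 (blue) and replicate 2 (orange). M2 takes 97.79% and 98.29% and M1 2.21% and 1.71%.

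Lactate dehydrogenase reduces pyruvate to lactate and regenerates NAD+. Ldha, the muscle-type subunit, was at 2872 TPM in replicate 1 and 3094 TPM in replicate 2. Ldhb, the heart-type subunit, was at 429 and 402 TPM. Ldha exceeded Ldhb by 6.69-fold and 7.69-fold, and it made up 87.7% ± 1.06 of the step. The testis form Ldhc was under 1 TPM. By steps, the summed level was lowest at hexokinase, 260 ± 11.5 TPM at phosphofructokinase, 925 ± 59.7 at aldolase, 2785 ± 38.7 at GAPDH (Gapdh 968 ± 0.202 over its longest transcript, where Aldoa was at 1136 ± 73.4), 487 ± 8.51 at phosphoglycerate kinase, 3086 ± 194 at enolase, 2764 ± 101 at pyruvate kinase and 3399 ± 137 at lactate dehydrogenase, 56.8-fold above hexokinase. These are transcript levels and give neither enzyme amounts nor flux.

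**Figure D3:**
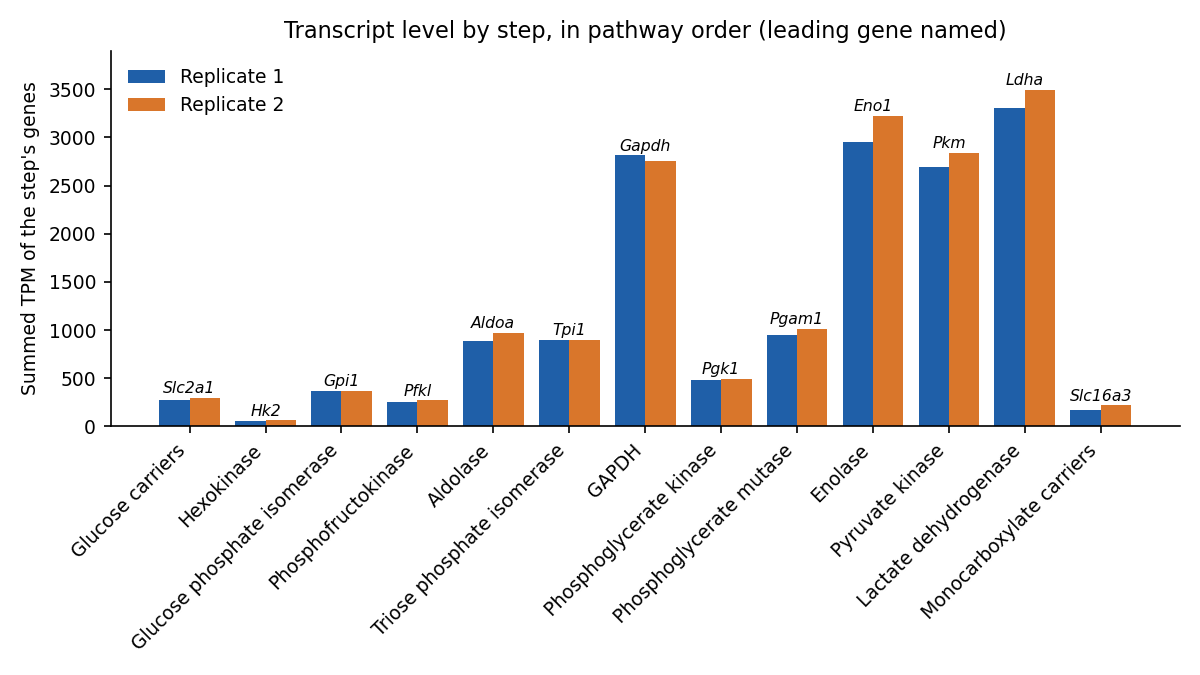
Summed TPM of all listed genes at each step, in pathway order from glucose carriers to monocarboxylate carriers, for replicate 1 (blue) and replicate 2 (orange), with the leading gene named. Hexokinase is the lowest bar pair (58.2 and 61.5 TPM) and lactate dehydrogenase the highest (3302 and 3496 TPM).

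The pentose phosphate pathway branches from glucose 6-phosphate and yields NADPH and ribose for nucleotides. Its entry enzyme G6pdx was the lowest of the 4, at 45.2 TPM in replicate 1 and 47.2 TPM in replicate 2. The next NADPH-forming enzyme Pgd was at 143 and 147 TPM. The sugar-rearranging enzymes transketolase (Tkt), at 179 and 174 TPM, and transaldolase (Taldo1), at 294 and 271 TPM, were higher in both libraries than either NADPH-forming enzyme. An exon of G6pdx overlaps Ikbkg on the opposite strand over 281 bases. The strand setting was not given, so reads there could have been given to either gene. Of 6 other enzymes of the pathway 4 were detected, with the lactonase Pgls at 224 ± 0.651 TPM, the epimerase Rpe at 45.6 ± 1.41 and H6pd, the enzyme of the endoplasmic reticulum, at 2.53 ± 0.0424. The transketolase-like genes Tktl1 and Tktl2 were under 1 TPM.

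At the entry to the mitochondrion, Pdha1 (the X-linked E1 alpha subunit of pyruvate dehydrogenase) was at 101 and 102 TPM. The kinases that switch it off were lower, with Pdk3 at 60.8 and 65.3 TPM and Pdk1 at 42.3 and 49.1 TPM. Pdk3 was above Pdk1 by 1.44-fold and 1.33-fold in TPM, but without division by length Pdk1 had the more counts and the log2 difference of Pdk1 against Pdk3 turned from -0.47 to 0.43. Pdk2 was at 10.5 ± 0.156 TPM and Pdk4, the kinase of fasting, under 1 TPM, and Pdk3 held 52.7% ± 0.808 of the summed TPM of the 4 kinases. Of 9 other genes of the complex and its regulators 7 were detected, led by the subunits Pdhb (164 ± 3.34 TPM), Dld (124 ± 3.61) and Dlat (48.0 ± 3.37). The testis copy Pdha2 had 0 counts. The carrier subunits that bring pyruvate into the mitochondrion, Mpc2 and Mpc1, were at 72.8 ± 5.81 and 56.7 ± 5.30 TPM.

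All 5 genes of the TCA group were above 100 TPM in both libraries and varied little between the pools. Citrate synthase (Cs), which opens the cycle, was at 225 and 219 TPM. Malate dehydrogenase closes it: the mitochondrial form Mdh2 was at 486 and 485 TPM and the cytosolic form Mdh1 at 362 and 373 TPM. Mdh2 led by 1.34-fold and 1.30-fold, more than the spread between libraries. The NADP-dependent isocitrate dehydrogenases followed the same pattern, with mitochondrial Idh2 at 392 and 407 TPM and cytosolic Idh1 at 210 and 209 TPM, a lead of 1.86-fold and 1.95-fold. Idh2 and Mdh2 thus both exceeded their cytosolic counterparts in each library. The size of the lead depended on how length entered. The mean Idh2 lead was 1.30-fold without division by length and 1.67-fold over the longest transcripts. For Mdh2 these were 1.225-fold and 1.79-fold. Of 14 other TCA enzymes all were detected, 9 of them at 100 TPM or more, led by succinate dehydrogenase subunits Sdhb (351 ± 5.07 TPM), Sdhd (272 ± 10.1) and Sdha (235 ± 7.04). Of 7 shuttle genes that carry reducing power between cytosol and mitochondrion 6 were detected, with Got2 at 169 ± 10.7, Slc25a11 at 117 ± 0.870 and Got1 at 51.6 ± 3.54 TPM, and with Gpd1 under 1 TPM.

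Beyond the 36 genes, further isoenzymes, gluconeogenic enzymes and carriers were counted by list. Of 10 further glycolytic isoenzymes 4 were detected, the highest being Pklr at 4.26 ± 0.686 and the muscle mutase Pgam2 at 2.41 ± 0.0283 TPM. Among those under 1 TPM were Hk3, Hkdc1, Gapdhs, Pgk2 and Ldhc, and Pgk2, the testis copy, had 0 counts. Of 7 gluconeogenic enzymes 3 were detected, namely the widespread phosphatase G6pc3 (33.0 ± 1.06 TPM), pyruvate carboxylase Pcx (14.9 ± 0.622) and mitochondrial Pck2 (9.42 ± 0.0141). The liver enzymes Pck1, Fbp1 and G6pc had 0 counts in both libraries, and Fbp2 was under 1 TPM. Of 11 other hexose and monocarboxylate carriers 8 were detected, and Slc2a2, the liver and islet glucose carrier, and Slc16a8 were under 1 TPM. A count of 0 allows up to 3 counts in a library, for counting error only.

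The 15 isoenzyme and carrier pairs had the same order in both libraries, with the first gene as listed in the plot of pairs higher in 10 and the second in 5, and 15 of 15 differences were larger than their SD. That SD holds only the spread between pools and not how length enters. Hk2 against Hk1 and Pdk1 against Pdk3 exceeded it, yet turned without division by length (-0.096 and 0.429 on the log2 scale). With 2 libraries an exact sign flip test cannot go below p = 0.5, so none is given. Of the 15 pairs, 5 lay within 2-fold on average: Hk2 and Hk1, Pfkfb3 and Pfkfb4, Pdk1 and Pdk3, Idh1 and Idh2, and Mdh1 and Mdh2. The others were apart by 2.86-fold or more in TPM. Without division by length, and over the longest transcripts, 6 pairs lay within 2-fold, Slc16a1 and Slc16a3 being the addition.

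**Figure D4:**
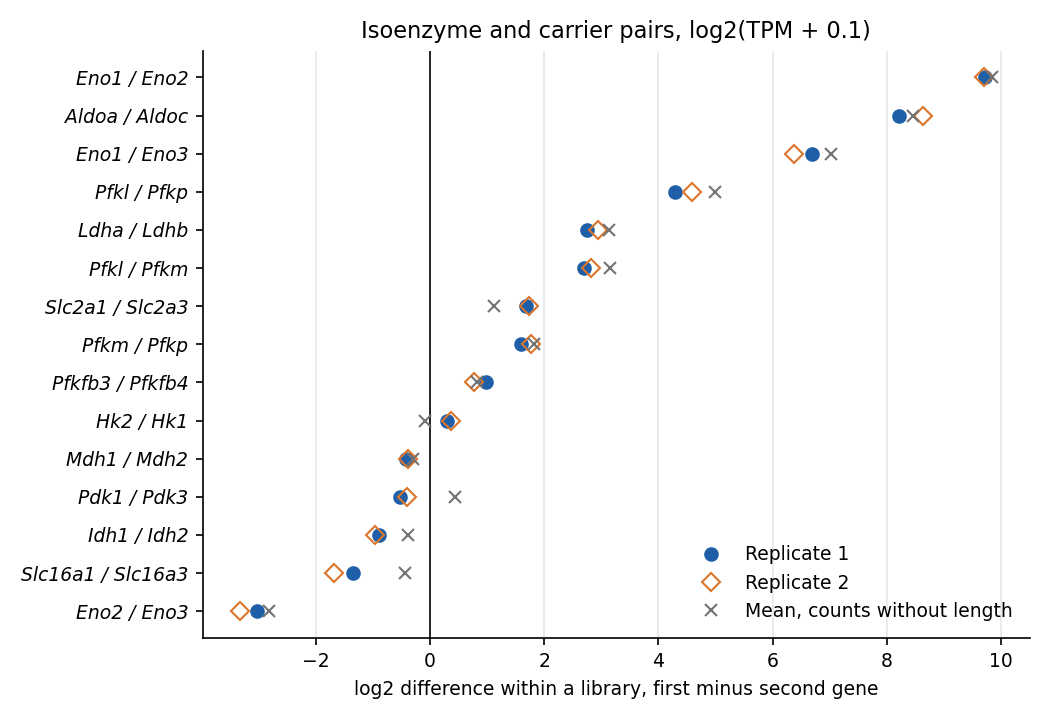
Difference between the 2 genes of each pair within a library, first minus second gene on the log2(TPM + 0.1) scale, in replicate 1 (circles) and replicate 2 (diamonds); crosses give the mean from counts without division by length. The vertical line marks equal levels. Hk2 / Hk1 and Pdk1 / Pdk3 are the 2 pairs whose cross lies on the other side of that line.

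Between the pools, expected counts scaled by TMM factors placed 23 of the 36 genes higher in replicate 2 (50.7% of all genes) and 13 higher in replicate 1 (49.3%), with a median log2 ratio of replicate 2 over replicate 1 of 0.03 against 0.00 for the 13842 genes whose mean count reached 50. Past 1.2-fold higher in replicate 2 were 3 of the 36 genes, Slc16a3, Eno3 and Pfkfb4, where 5.21% of those 13842 genes were. Past 1.2-fold higher in replicate 1 was 1 of the 36, Aldoc, where 9.06% of all genes were. No gene of the 36 passed 1.5-fold in either direction, where 0.91% of all genes did towards replicate 2 and 2.02% towards replicate 1. Among genes whose mean count reached 1000, a limit added after the data were seen, 2 of 32 passed 1.2-fold towards replicate 2 (Slc16a3 and Eno3; 0.795% of 7421 genes) and 0 of 32 towards replicate 1 (1.25%).

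Slc16a3 had 7047 counts in replicate 1 and 8361 in replicate 2, a ratio of 1.30 with a counting interval of 1.26 to 1.35 (95%, exact binomial, counting error only). Eno3 had 1038 and 1299 counts, a ratio of 1.38 (1.27 to 1.49). Pfkfb4 had 589 and 679 counts, a ratio of 1.27 (1.13 to 1.42). These 3 were each higher in the pool with the lower erythroid and neuronal markers, whose part in them was not tested. Aldoc had 108 and 79 counts, a ratio of 0.805 with an interval of 0.594 to 1.08, which includes 1, so no difference was detectable at this depth. Of the 36 intervals 15 excluded 1 towards replicate 2, where 17.4% of the 13842 genes did, and 5 towards replicate 1, where 17% did. Among genes whose mean count reached 1000 these were 14 of 32 (23.3% of 7421 genes) and 5 of 32 (15.8%). The most abundant genes were among them with small ratios: Eno1 at 1.08, Ldha at 1.07 and Pkm at 1.04. These intervals hold counting error alone and not the variation between embryo pools. Scaling by spike-in counts in place of TMM moved every gene alike by 0.17 on the log2 scale. It put 35 of the 36 genes (84.3% of all genes) higher in replicate 2 and 1, Aldoc, higher in replicate 1 (15.7%). Past 1.2-fold were then 9 of 36 towards replicate 2 (20.9% of all genes) and 0 towards replicate 1 (4.1%), so the direction of small differences between the pools depends on the scaling.

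**Figure D5:**
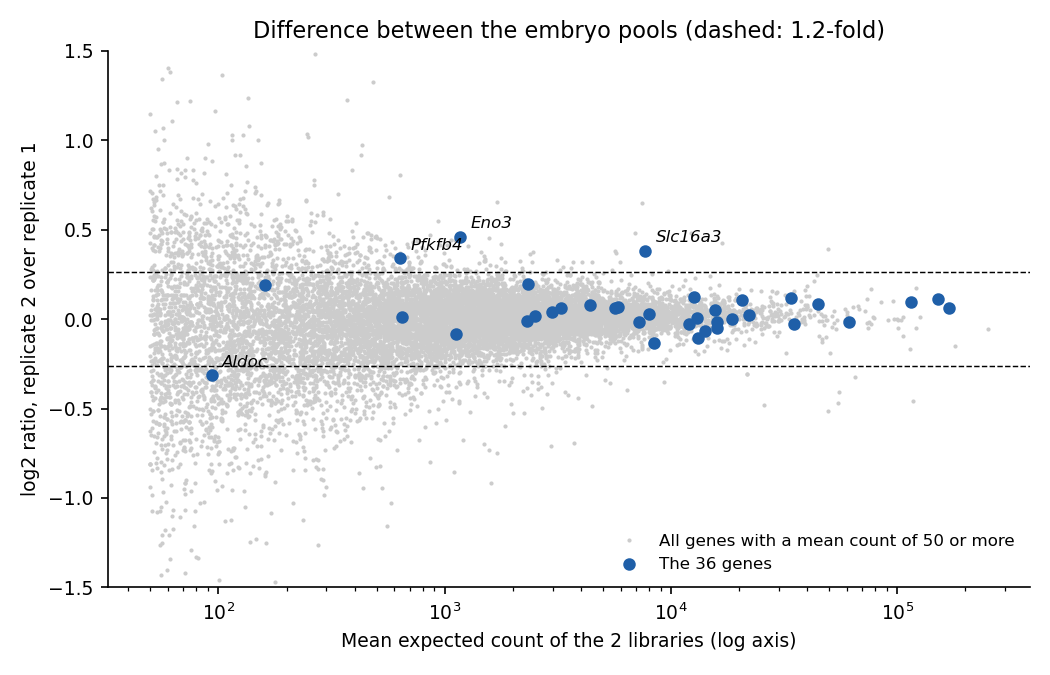
log2 ratio of replicate 2 over replicate 1 against the mean expected count of the 2 libraries (log axis) for all genes whose mean count reached 50 (grey; 18 lie outside the axis) and the 36 genes (blue); dashed lines mark 1.2-fold. Slc16a3, Eno3 and Pfkfb4 lie above the upper line and Aldoc below the lower one.

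Transcript shares were stable for most of the 36 genes. Of the 32 with several deposited transcripts, 31 had the same leading transcript in both libraries, and in 17 it held over 90% of the gene's TPM in both. The exception was Pfkfb3, whose transcript ENSMUST00000114846.4 held 43.5% in replicate 1 and 19.4% in replicate 2 while ENSMUST00000114845.5 held 20.2% and 35.0%. The gene's total of 1211 and 1041 counts, spread over several models, stood behind those shares.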

How the data were processed

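Total RNA from 2 pools of E10.5 forebrain was sequenced; RNA was extracted with a mirVana kit and spike-ins were added, per the labels' protocols. The authors deposited a gene and a transcript table per library on mm10 with annotation M4. These hold expected counts (estimated reads, not normalized), TPM and FPKM values, and a signal-scale lower and upper bound of TPM, per the file headers. The deposited percent value gives each transcript's share of its gene's TPM. The aligner, counting tool and strand setting were not given in the sources used here. Spike-ins took 7.83% and 7.01% of TPM and are part of its total.

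The 36 genes and all lists were chosen with earlier results of these data known. The rule named all 36 genes; other genes were named by list, as the 3 highest and those under 1 TPM, besides the highest matching gene model; Pdk2, Ptbp1 and Ptbp2 were chosen after their values were seen. Some genes that the rule names are left out of the text. Symbols and coordinates came from GENCODE M21 (GRCm38). Levels were compared as TPM and as log2(TPM + 0.1), both from the deposited TPM. Ratios between libraries added 0.5 to the expected counts and divided by library sizes scaled with TMM; expected counts were rounded only for edgeR 4.0.16 and DESeq2 1.42.0 (R 4.3.3), which gave scaling factors and no test. The scaled ratio between libraries was tested on simulated counts with known changes, and no other step was simulated. Models sharing sequence were found with blastn 2.17.0 (90% identity, 200 bases). Alternatives were other pseudocounts, posterior mean TPM, FPKM, counts without length, other scalings, a count filter and each library alone. Nothing in the labels shows more than separate pools, so spread between libraries may be partly technical.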

Additional observations from a re-analysis of the deposited data

How the results depend on the processing

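For the 15 pairs, 90 alternative values came from other units, pseudocounts or lengths: 55 moved by less than the spread between libraries, 32 moved by more without changing direction and 3 changed direction. Without division by length Hk2 against Hk1 turned to -0.096 and Pdk1 against Pdk3 to 0.429 on the log2 scale, and with counts over the longest transcript, chosen after seeing the data, Hk2 against Hk1 turned to -0.46; each follows from how length enters. The median level of the 36 genes was 199.25 TPM when rescaled over genes alone and 239.87 TPM with the longest transcript. Genes past 1.2-fold between libraries went from 4 to 9 with spike-in scaling, which shifts all genes alike. Of the other alternatives for the main values, 15 stayed within 1 SD or, for counts, within 1.5 times. With 2 libraries, the mean of a single one lies within the SD by construction, so leaving one out says nothing about stability. No paired analysis was possible because the 2 libraries form a single group, so replicate numbers link no groups. Depth limits Aldoc and Eno2, with 79 to 163 counts per library, and an exact test over 2 libraries cannot go below p = 0.5.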
